A study of Mus musculus with 16 samples.

Results

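The p200 genes of the mouse encode the AIM2-like receptors, a family of interferon-inducible proteins that bind DNA through a HIN domain. Of the genes of this family, Aim2, Ifi202b, Ifi203, Ifi204 and Ifi205 carry probes of that symbol on the array, and all 8 of their probes were taken, out of 25697 probes in all. Knockout small intestine had far less Aim2 signal than wildtype tissue, less signal from 1 of the 3 Ifi202b probes, and a small gain at both Ifi205 probes. The probes of Ifi203 and Ifi204 did not rise above background in any mouse. The members were selected on genotype differences in these same arrays, among them the low Aim2 signal beside high interferon-induced genes. Knockout-to-wildtype differences of the members are therefore given as descriptions with their standard errors (SE), without a test.

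In an animal cell, DNA belongs in the nucleus and the mitochondria, and DNA in the cytosol is read as a sign of infection or damage. AIM2 binds double-stranded DNA there and joins the adaptor ASC (gene Pycard) through its pyrin domain, which leads to an inflammasome that activates caspase-1, releases the mature cytokines interleukin-1 beta and interleukin-18, and can kill the cell through gasdermin D. In mice p202, the product of Ifi202b, has HIN domains but no pyrin domain and restrains AIM2. Ifi204 is related to human IFI16 and takes part in DNA sensing through STING, and Ifi205 has been reported in mouse macrophages to act on Pycard expression. Many p200 genes are induced by interferon.

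The 16 arrays came from 8 wildtype and 8 knockout mice, 1 array each, with RNA from whole small intestine. Knockout mice are described in the protocol as VillinCreERT2-positive with Hnf4afl/fl alleles, so that tamoxifen removes Hnf4a where the villin promoter drives the Cre recombinase, in the intestinal epithelium. The wildtype mice had no VillinCreERT2, and their genotype is written both as Hnf4afl/fl and as Hnf4a+/+. Loss of Hnf4a and presence of the Cre recombinase therefore go together in these groups and cannot be told apart. All 16 mice had 1 mg of tamoxifen by gavage on each of 5 days, 14 Gy of whole-body gamma irradiation 3 weeks later, and were killed 96 hours after that. No unirradiated mice were measured, and the labels used here give no age or strain background.

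Detection was similar in both groups. The share of probes detected on an array ran from 46.9% to 53.1%, a probe counting as detected where its deposited detection p against the negative controls was under 0.05. Knockout array 3 had the highest median intensity as deposited (202, against 128 to 194 on the other arrays) and the fewest detected probes. On slide 2 all knockout medians as deposited (141 to 166) lay above all wildtype medians (128 to 139). On slide 1 they overlapped (168 to 202 and 145 to 194). Hnf4a itself went from 12.22 ± 0.16 to 10.47 ± 0.19 log2 units (SD, n = 8 each), a difference of -1.75 (SE 0.10, limma adjusted p = 2.04e-09). Of 15 small intestinal epithelial markers 11 were tested. Fabp1 and Fabp2 had probes that were not detected on enough arrays to be tested, and Alpi and Epcam had no probe here. The 11 were detected on all 16 arrays, with list means of 12.40 to 12.71 in wildtype and 12.27 to 12.68 in knockout tissue. Values below are normalised log2 intensities unless stated otherwise, with a floor near 5 for probes without signal.

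The family lies in a cluster on chromosome 1, and in RefSeq order Aim2 is the first and Ifi205 the last of 13 genes. The sequence around the start site is shown for the 3 members with detected signal, whose differences ran in both directions, and for Ifi203 as a member without detected signal, to set their interferon motifs side by side. Promoters are from RefSeq (GRCm38.p6), 250 bases before to 50 after the start, given 5′ to 3′ on the gene's strand. Capitals mark matches to the core of the interferon-stimulated response element (GAAA, any 2 bases, GAAA) or to the gamma-activated sequence (TTCNNNGAA), searched on both strands.
Aim2, chr1:173420354-173420653, + strand: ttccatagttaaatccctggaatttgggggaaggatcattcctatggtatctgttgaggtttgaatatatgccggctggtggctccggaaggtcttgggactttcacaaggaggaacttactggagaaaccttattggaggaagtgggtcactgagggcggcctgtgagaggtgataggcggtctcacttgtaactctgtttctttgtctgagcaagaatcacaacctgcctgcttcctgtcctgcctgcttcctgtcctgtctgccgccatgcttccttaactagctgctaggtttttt
Ifi202b, chr1:173982795-173983094, - strand: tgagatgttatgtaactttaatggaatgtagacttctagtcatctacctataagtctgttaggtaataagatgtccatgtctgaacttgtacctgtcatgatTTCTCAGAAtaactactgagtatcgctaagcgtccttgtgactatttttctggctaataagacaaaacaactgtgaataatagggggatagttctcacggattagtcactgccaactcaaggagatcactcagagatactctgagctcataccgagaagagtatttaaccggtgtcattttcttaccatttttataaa
Ifi205, chr1:174031706-174032005, - strand: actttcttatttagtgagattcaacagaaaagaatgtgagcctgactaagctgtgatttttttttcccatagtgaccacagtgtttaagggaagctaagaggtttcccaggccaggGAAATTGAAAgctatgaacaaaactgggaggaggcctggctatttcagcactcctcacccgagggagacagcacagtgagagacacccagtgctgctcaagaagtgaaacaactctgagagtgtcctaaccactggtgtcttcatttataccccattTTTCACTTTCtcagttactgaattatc
Ifi203, chr1:173942443-173942742, - strand, from 1 of 2 listed starts: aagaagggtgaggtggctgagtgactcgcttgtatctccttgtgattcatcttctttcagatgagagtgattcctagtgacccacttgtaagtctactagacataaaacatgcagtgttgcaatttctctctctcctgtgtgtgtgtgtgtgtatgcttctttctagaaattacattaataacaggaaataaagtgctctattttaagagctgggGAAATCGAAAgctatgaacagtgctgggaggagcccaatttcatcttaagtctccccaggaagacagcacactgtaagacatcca
The Aim2 window holds neither motif. The Ifi202b window holds a gamma-activated sequence, TTCTCAGAA, that begins 148 bases before the start. The Ifi205 window holds GAAATTGAAA from 134 bases before the start and, on the opposite strand, TTTCACTTTC from base 24 after it. Ifi203 has GAAATCGAAA from 35 bases before this start, and the window of its other start holds neither motif. The response element core is in 3.43% of 32817 promoter windows of this length and in at least 1 window of 9 of the 12 p200 genes with a listed promoter. Aim2, Ifi202b and Ifi209 are the 3 without it. Among the interferon-induced genes tested here, 15 of 25 with a promoter hold it. The gamma-activated sequence is in 8.29% of windows. An HNF4-specific element, CAAAGTCCA or its reverse complement, is in 0.475% of windows and in none of the p200 windows. These are matches of letters in a short window, and a window without a match says nothing about whether a factor acts on the gene. Ifi204 is in the family and is named without a sequence.

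Aim2 was the member detected in every wildtype mouse. Wildtype arrays ran from 7.93 to 9.11 with a median of 8.72, and all 8 were detected. Knockout arrays ran from 5.42 to 6.42 with a median of 5.54. Every knockout array thus lay below every wildtype array, with a gap between 6.42 and 7.93. In the intensities as deposited the wildtype arrays read 289 to 751 (median 496) and the knockout arrays 131 to 231 (median 145). Detection in knockout tissue was limited to arrays 3, 7 and 8, where the detection p lay between 0.0213 and 0.0451.

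Mean Aim2 signal was 8.61 ± 0.42 for wildtype mice and 5.73 ± 0.37 for knockout mice (SD, n = 8 each), which differ by -2.88 (SE 0.18). With the knockout arrays set no lower than the dimmest detected probe of each array, wildtype tissue had at least 6.39-fold more signal. That bound holds for this processing only. Without background correction the log2 difference was -1.76, which is a smaller fold. In the main processing the difference came to -2.88 within slide 1 and to -2.88 within slide 2, each with 4 arrays of each genotype. Leaving out any 1 array gave -2.98 to -2.81. In whole tissue, fewer cells of a type that carries a transcript and less of the transcript per cell cannot be told apart, and this holds for each gene below.

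**Figure D1:**
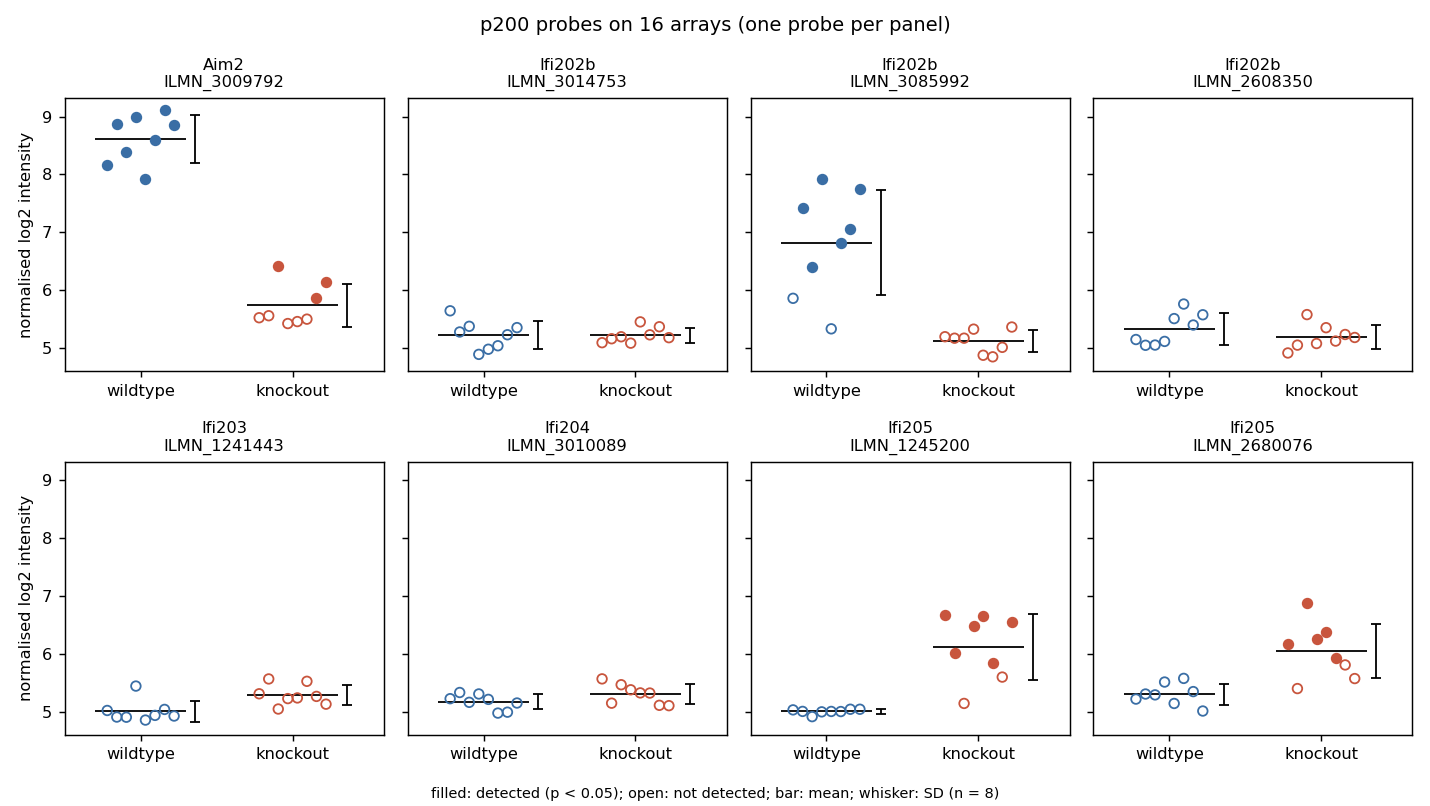
Normalised log2 intensity (y axis) of each p200 probe on the 8 wildtype (blue) and 8 knockout (red) arrays. Filled points were detected and open points were not, bars are means and whiskers SD. Aim2 has no overlap between genotypes, 1 Ifi202b probe has signal in most wildtype mice, both Ifi205 probes have signal in most knockout mice, and the remaining 4 probes stay near 5.

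Ifi202b was read by 3 probes, and they did not behave alike. Probe ILMN_3085992 had signal above background in 6 of 8 wildtype mice and in no knockout mouse. Wildtype values ran from 5.33 to 7.91 with a median of 6.94, and knockout values from 4.85 to 5.36 with a median of 5.17. Only the lowest wildtype array, number 5, fell within the knockout range. The means were 6.82 ± 0.91 and 5.12 ± 0.19 (SD, n = 8 each), a difference of -1.70 (SE 0.30), or at least 1.94-fold more in wildtype tissue.

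The other Ifi202b probes, ILMN_3014753 and ILMN_2608350, were detected on no array. Their group means lay between 5.19 and 5.32 and their differences were -0.00362 (SE 0.10) and -0.14 (SE 0.12). The Ifi202b signal therefore rests on a single probe, and where the 3 probes lie in the transcript was not analysed here. Across the 8 wildtype arrays the correlation of ILMN_3085992 with ILMN_3014753 was -0.20 and with ILMN_2608350 was -0.08. The p200 genes are close relatives, and which other p200 transcripts a probe can bind was not tested.

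Aim2 and Ifi202b signals moved together between wildtype mice. Wildtype arrays 5 and 1 were lowest for both genes (7.93 and 8.17 for Aim2, 5.33 and 5.86 for Ifi202b), and arrays 2, 4, 7 and 8 had the 4 highest values of each. Over the 8 wildtype arrays Pearson's r was 0.920 (exact two-sided permutation p = 0.00159, adjusted over both genotypes 0.00317) and Spearman's rho was 0.833 (exact permutation p = 0.0154, adjusted 0.0308). Without the 2 arrays farthest from the median of Aim2, r was 0.721 over 6 arrays. It was 0.996 on slide 1 and 0.879 on slide 2, with 4 arrays on each. This pair was chosen after the values were seen, and 2.07% of the other tested genes correlated at least as highly with Aim2 across the same arrays. In knockout tissue, where Ifi202b was not detected, r was 0.326 (exact permutation p = 0.436, adjusted 0.436) and rho 0.238 (exact permutation p = 0.582, adjusted 0.582), with r at -0.158 without the 2 farthest arrays.

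Ifi205 went the other way at both of its probes. Probe ILMN_1245200 had signal above background in no wildtype mouse and in 6 of 8 knockout mice. Wildtype values ran from 4.91 to 5.04 with a median of 5.00, and knockout values from 5.14 to 6.67 with a median of 6.25. The groups did not overlap, although the lowest knockout array, number 3, lay just above the highest wildtype array. The means were 5.00 ± 0.04 and 6.12 ± 0.56 (SD, n = 8 each), a difference of 1.12 (SE 0.19). Against the dimmest detected probes of the wildtype arrays this is a gain of at least 1.15-fold.

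Probe ILMN_2680076 of Ifi205 was detected on no wildtype and 5 knockout arrays. Wildtype values ran from 5.01 to 5.57 with a median of 5.30, and knockout values from 5.40 to 6.87 with a median of 6.05. The groups overlapped here, and the difference was 0.75 (SE 0.17), at least 1.10-fold. Both probes were detected on knockout arrays 1, 4, 5 and 6. Knockout array 3 read lowest of its group on the first probe and highest on the second, and within the knockout group the correlation between the probes was -0.24 over 8 arrays. The direction was thus shared by the probes, while the order of the knockout mice was not.

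The single probes of Ifi203 and Ifi204 stayed near the floor. Ifi203 read 5.00 ± 0.19 in wildtype mice and 5.29 ± 0.18 in knockout mice (SD, n = 8 each) with no array detected, the lowest detection p being 0.103. Ifi204 means were 5.17 ± 0.13 and 5.30 ± 0.17, again with no array detected, and a lowest detection p of 0.100. Differences of 0.28 (SE 0.09) and 0.13 (SE 0.08) between values below detection give no fold. A change in either gene was not detectable with these probes. Across the array 34.9% of all probes were detected on no array. Of the other family genes, only Ifi209 was found through a probe, listed under the old name AI447904, and it too was detected on no array (5.00 ± 0.12 and 4.93 ± 0.05).

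Of the 8 probes 3 passed the detection filter of at least 6 arrays, and these 3 represent Aim2, Ifi202b and Ifi205 in the limma fit over 10143 genes. Aim2 and Ifi202b were among the lower genes of that fit and Ifi205 among the higher, 3 of 3, while 30.7% of all tested genes passed in either direction. Ifi202b passed the filter only through wildtype arrays and Ifi205 only through knockout arrays, so these had to differ, and nothing is read from the count. Complete separation of the groups, as for Aim2, was seen in the lower direction for 4.36% of tested genes, and in the higher direction, as for Ifi205, for 2.54%.

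The interferon-induced genes rose in the same tissue. Of 34 tested list members 33 rose in knockout tissue and none fell, with a median log2 difference of 1.20, where 13.5% of all tested genes passed as higher, 17.2% as lower, and the median over all was -0.02. This contrast was part of how the family was picked. Cxcl10, a chemokine induced by interferon gamma, rose by 3.04 (SE 0.28, limma adjusted p = 1.03e-06), from 5.54 to 7.33 across wildtype arrays and 8.64 to 10.49 across knockout arrays. Its relative Cxcl9 rose by 2.72 (SE 0.32, adjusted p = 1.52e-05, limma). The antiviral genes Oas2 and Ifit3 rose by 2.61 and 2.54 (limma adjusted p = 9.41e-07 and 3.29e-07). All 4, named for having the largest changes of the list, had no overlap between genotypes. Among all tested genes 2.54% separated in this direction. Irgm1 was the member that did not pass (0.08, limma adjusted p = 0.504).

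**Figure D2:**
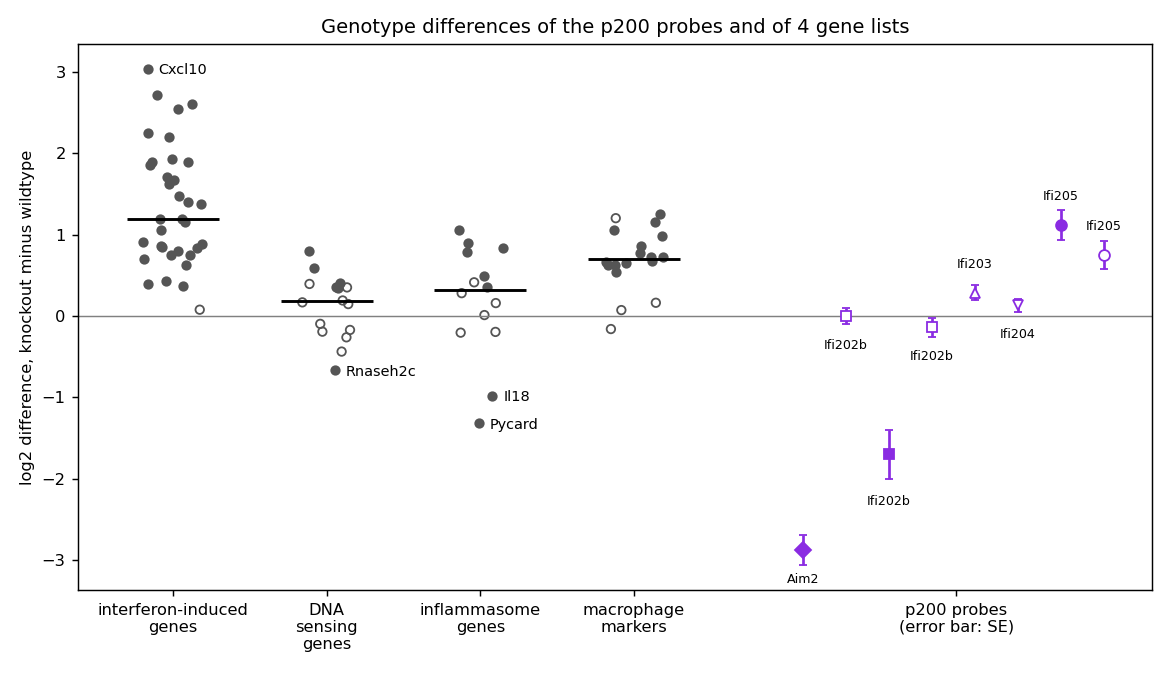
Log2 difference, knockout minus wildtype (y axis), of the members of 4 gene lists (grey; filled where the limma adjusted p is under 0.05, bar at the median) and of the 8 p200 probes (purple; filled where the detection filter was passed, error bars SE). The interferon-induced median lies at 1.20, with Aim2 at -2.88 and the detected Ifi202b probe at -1.70.

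Within a genotype, no relation between a member and the level of the interferon-induced genes passed the test. A total of 18 correlations were computed, 3 members against 3 list means in each genotype, with exact two-sided permutation tests over 8 arrays. Aim2 against the interferon mean gave r = -0.350 in wildtype (rho = -0.452, exact permutation p = 0.379 and 0.267, adjusted 0.746 and 0.688), with -0.537 without the 2 farthest arrays. On the slides r was -0.46 and -0.36. Ifi205 against the interferon mean in knockout tissue gave r = 0.201 (rho = 0.119, exact permutation p = 0.627 and 0.793, adjusted 0.782 and 0.840), with 0.304 without the 2 farthest arrays and -0.57 and 0.83 on the slides. For Ifi202b in wildtype tissue r was -0.182 (rho = -0.190, exact permutation p = 0.652 and 0.665, adjusted 0.782 and 0.798), -0.496 without the 2 farthest, and -0.46 and 0.12 on the slides. A p above the threshold over 8 arrays does not show that the genes vary independently.

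Of the 18 correlations, the one that passed after adjustment, by Spearman's rho alone, was that of Ifi205 with the macrophage markers in knockout tissue. Against their mean, probe ILMN_1245200 had a rho of 0.929 (exact permutation p = 0.00223, adjusted over the 18 0.0402) and an r of 0.698 (exact permutation p = 0.0455, adjusted 0.273). Without the 2 arrays farthest from the median, r was 0.920, and on the slides it was 0.74 and 0.81. The relation was not seen with the other Ifi205 probe, where r was 0.128 and rho 0.0476 (exact permutation p = 0.768 and 0.935, adjusted over its 6 correlations 0.955 and 0.935). Macrophage markers themselves were higher in knockout tissue, 14 of 18 tested and none lower, beside 13.5% higher and 17.2% lower among all tested genes, with a median of 0.70. Their list mean ran from 8.95 to 9.49 on wildtype and from 9.38 to 10.64 on knockout arrays. Mrc1, the mannose receptor, rose by 1.25, the lysozyme gene Lyz2 by 1.16, Cd68 by 1.06 and the complement gene C1qb by 0.98 (limma adjusted p = 0.00173, 0.00442, 0.00671 and 0.000369). Other Lyz2 probes gave 0.90 and 0.32. The part of these cells in the Ifi205 gain was not tested.

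**Figure D3:**
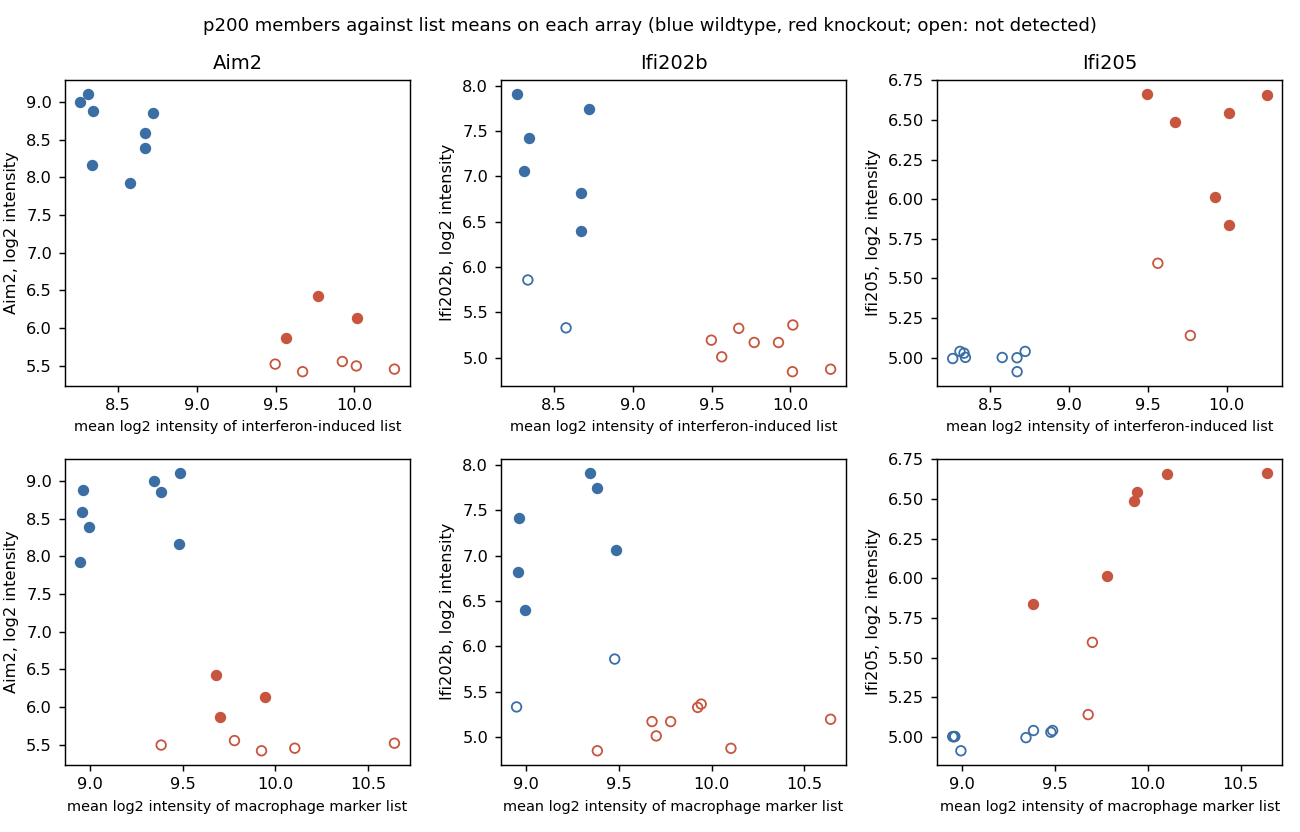
Log2 intensity of Aim2, Ifi202b and Ifi205 (y axes) on each array against the mean log2 intensity of the interferon-induced list (top) and of the macrophage marker list (bottom); blue wildtype, red knockout, open where the member was not detected. The interferon means of the genotypes did not overlap, while their macrophage means did. Within the knockout arrays the Ifi205 probe shown, ILMN_1245200, had a rho of 0.929 with the macrophage mean and 0.119 with the interferon mean. The difference between these relations was not tested. The other Ifi205 probe, not shown, had a rho of 0.0476 with the macrophage mean.

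Many markers of other cells in which AIM2 family genes are known to be expressed could not be tested. Few of those tested passed the threshold. Of 13 B cell markers 3 were tested and 10 either had no probe here or were not detected on enough arrays, Ms4a1 and Pax5 among the latter. The 3 were Fcrla (-0.75, limma adjusted p = 0.0617), Cd79b (-0.28, adjusted p = 0.342, limma) and Pou2af1 (-0.09, limma adjusted p = 0.852), and their mean spanned 7.15 to 8.38 in wildtype and 6.41 to 8.23 in knockout tissue. In wildtype tissue the correlation of this mean with Aim2 and with Ifi202b was negative, but neither passed after adjustment. Pearson's r was -0.786 for Aim2 and -0.854 for Ifi202b (exact permutation p = 0.0219 and 0.00799, adjusted 0.197 and 0.144). Spearman's rho was -0.786 and -0.810 (exact permutation p = 0.0279 and 0.0218, both 0.168 after adjustment). Without the 2 farthest arrays r was -0.653 and -0.791, and on the slides it was -0.74 and -0.83 for Aim2 and -0.68 and -0.99 for Ifi202b. With 75th percentile scaling rho was -0.619 for Aim2 and -0.595 for Ifi202b (exact permutation p = 0.115 and 0.132, both 0.590 after adjustment). Shares past the threshold in the next 3 lists lay below the 30.7% of all tested genes. Of 14 T and NK cell genes 7 were tested and 1 fell, the T cell receptor component Cd3e by 0.58 (limma adjusted p = 0.0180). Of 11 neutrophil genes 5 were tested, and all 5 differences were positive, with a median of 0.45. Only 1 of them passed, the decoy receptor gene Il1r2, higher by 0.48 (limma adjusted p = 0.0434), a call that was lost under 16 alternatives. The other genes of these 2 lists had no probe here or were not detected on enough arrays. Epithelial markers had 1 of 11 higher, Krt20 by 0.35 (limma adjusted p = 0.0239), and none lower. The part of any of these cells in the Aim2 difference was not tested.

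Downstream of AIM2, the adaptor and 1 of its cytokines fell, while the other inflammasome genes past the threshold rose. Of 14 tested inflammasome genes 6 rose and 2 fell (57.1%, beside 30.7% of all tested genes, 13.5% higher and 17.2% lower), with a median of 0.32. Pycard, the adaptor ASC, ran from 8.54 to 9.56 (median 8.84) on wildtype and from 6.87 to 8.19 (median 7.64) on knockout arrays, with no overlap. It fell by 1.32 (SE 0.20, limma adjusted p = 0.000156). Il18, the cytokine that caspase-1 matures and that the gut epithelium makes, fell by 0.98 (SE 0.15, limma adjusted p = 0.000205), from 10.56 to 11.62 in wildtype and 9.49 to 10.42 in knockout tissue, again without overlap. Separation in the lower direction was seen for 4.36% of all tested genes.

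The inflammasome genes that rose were led by Casp4, the caspase of the noncanonical pathway, which rose by 1.06 (SE 0.27, limma adjusted p = 0.00696). Its other probes gave 0.90 (SE 0.23) and 0.16 (SE 0.16). Il1rn, the antagonist of the interleukin-1 receptor, rose by 0.90 (SE 0.17, limma adjusted p = 0.000972) without overlap between genotypes. Separation in the higher direction was seen for 2.54% of all tested genes. The other 4 that rose, between 0.35 and 0.84, were Il1b, Il1a, the pore former Gsdmd and Casp8. They and Casp1 fall outside the naming rule and are given after their values were seen. Casp1 itself was strongly expressed and read 12.54 ± 0.35 in wildtype mice and 12.55 ± 0.18 in knockout mice (SD, n = 8 each), differing by 0.01 (SE 0.14, limma adjusted p = 0.962). Nlrp3, Nlrp6 and Nlrp1a had probes that did not pass the detection filter.

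Other genes of cytosolic DNA sensing passed the threshold, both directions together, at a share near that of all genes. Of 16 tested, 5 rose and 1 fell, 37.5% beside the 30.7% of all genes, with a median of 0.18. By direction, 13.5% of all tested genes passed as higher and 17.2% as lower. Samhd1, which limits the supply of DNA building blocks, rose by 0.81 (SE 0.17, limma adjusted p = 0.00163), although its other probe gave 0.32 (SE 0.20). Adar, an RNA-editing enzyme induced by interferon, rose by 0.58 (SE 0.12, limma adjusted p = 0.00133). The kinase gene Tbk1 rose by 0.40 (SE 0.13, limma adjusted p = 0.0292), a call lost under 7 alternatives, among them without wildtype array 1 or 5 or knockout array 2, 4 or 8. The gene that fell was Rnaseh2c, a subunit of the enzyme that removes RNA from DNA, by 0.67 (SE 0.11, limma adjusted p = 0.000221). Cgas, the other main sensor of cytosolic DNA, was detected on all arrays at 7.17 ± 0.23 and 7.07 ± 0.62 (SD, n = 8 each), a difference of -0.10 (SE 0.22, limma adjusted p = 0.773), given after its value was seen. Without wildtype array 5 the count of DNA sensing genes past the threshold was 3 in place of 6.

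The genes beside the cluster on chromosome 1 changed in both directions. Among the 25 tested genes before Aim2 and the 25 after it in RefSeq order, leaving out Ifi202b and Ifi205, 14 of 48 rose and 6 fell (41.7%, against 30.7% of all tested genes, 13.5% higher and 17.2% lower), with a median of 0.09. The largest fall among the 48 was that of Hnrnpu, by 0.45. Mptx1, a mucosal pentraxin gene 5 tested genes beyond Aim2, rose by 2.10 (SE 0.16, limma adjusted p = 1.22e-07). Cd84, a leukocyte receptor gene of the SLAM family, rose from 7.07 to 8.23 across wildtype arrays to 8.40 to 10.01 across knockout arrays (limma adjusted p = 0.000125). F11r, which encodes a junctional adhesion molecule, rose by 1.40 (SE 0.18, limma adjusted p = 2.97e-05). These 3, named for their large changes, were among 7 of the 48 with no overlap between genotypes. Among all tested genes 2.54% separated as higher and 4.36% as lower. The closest tested gene on the other side, Ackr1, stood at 1.27 and was picked after its value was seen. Aim2 and Ifi202b ranked 9 and 36 from the lowest of the 10143 tested genes, and the members were picked with this contrast in view. Almost any set of genes would lie above them, so nothing is read from the comparison with these neighbours. What part their shared place on the chromosome has was not tested.

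**Figure D4:**
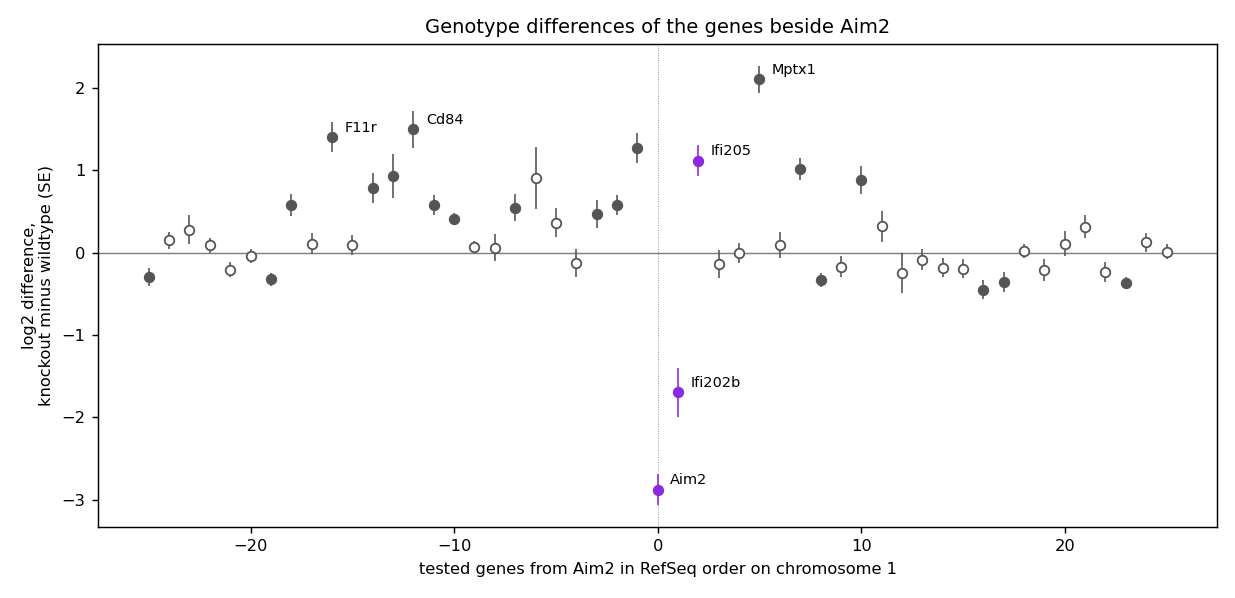
Log2 difference, knockout minus wildtype, with SE (y axis) for Aim2, Ifi202b and Ifi205 (purple) and the 48 other tested genes nearest to Aim2 (grey), by their order on chromosome 1 (x axis, in tested genes from Aim2). Filled points had a limma adjusted p under 0.05. Aim2 lies at -2.88 and Ifi202b at -1.70, members picked with this contrast in view, and the 48 span -0.45 to 2.10.

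The genes whose levels most resembled each member once genotype means were removed, over 16 arrays, were different for the 3 members. For Aim2 they included Rab11fip2 and Sec11c (r = 0.753 and 0.749). For Ifi202b they were Tmem106b, Nmd3 and Gnaq (r = 0.923, 0.923 and 0.907), and within the wildtype arrays alone these reached 0.975, 0.942 and 0.945. Within the knockout arrays, where Ifi202b was not detected, the values were 0.535, 0.688 and 0.271. For Ifi205 they were 4930486L24Rik, Socs5 and Atp6v1e1 (r = 0.814, 0.799 and 0.788), with wildtype values of 0.16 to 0.37, where Ifi205 was not detected, and knockout values of 0.840 to 0.913. None of these 8 genes is a member of the gene lists used here. They are among the highest of the 10143 tested genes and are given as a description.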

How the data were processed

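Small intestinal RNA of 16 mice was hybridised to Illumina bead arrays, 1 array per mouse. The deposited intensity of each probe is not normalised, per the file headers, and has a detection p-value beside it. The authors' series table holds an intensity per probe with medians of 159 on every array and no method named, and was used as an alternative. The sources used here name no scanner software or genome build. With limma 3.58.1 (R 4.3.3) intensities were background corrected by normexp (negative controls inferred from the detection p-values, offset 16), quantile normalised and put on the log2 scale, so log2 values are not as deposited, and folds of dim probes are shrunk. The fit used the brightest probe per gene detected on at least 6 arrays (13460 probes, 10143 genes), genotype as the only term and Benjamini-Hochberg adjustment at 0.05. Symbols were updated through RefSeq names. Correlations used exact permutation (Python 3.11.15, SciPy 1.17.1). Where a probe had no more than 4 detected arrays in a group, its fold is a lower bound under this processing. Members, lists and tests were chosen with earlier results of these data known. Genes were named by rule: all members, Hnf4a, up to 4 genes past the threshold with the largest change per list (or the lowest p), and 3 most alike genes per member, of which 1 is not reported here. The fit was tested on simulated data. Nothing was left out of the 16 arrays, whose number limits the precision. Each array was taken as a separate animal because the design text speaks of mice. The alternatives were no background correction, the series table, scaling to the 75th percentile, an offset of 50, slide or replicate number as a block, each slide alone, each array left out, other detection filters and every probe tested.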

Additional observations from a re-analysis of the deposited data

Results flagged for a closer look

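Of 32 groups of 8 arrays examined (8 probes and 8 list means in each genotype), 2 held a sample far from the others, and chance gives about 1 in 20. Ifi203 probe ILMN_1241443 read 5.44 on wildtype array 4 against 5.04 on the next array, a gap of 0.687 of the group's range. Ifi205 probe ILMN_1245200 read 4.91 on wildtype array 3 against 4.99 on the next, a gap of 0.648 of the range. Neither probe was detected on any wildtype array.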

How the results depend on the processing

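The signs of the Aim2, Ifi202b (ILMN_3085992) and Ifi205 differences were kept under every alternative run. Without background correction Aim2 differed by -1.76 and Ifi202b by -1.04, and with an offset of 50 Aim2 by -2.28 and Ifi205 by 0.67, both settings by construction leaving more constant signal in the intensities. With the series table Aim2 differed by -1.76. Leaving out 1 array gave -1.91 to -1.54 for Ifi202b and 1.04 to 1.26 for Ifi205. The count of all genes past the threshold was 762 on slide 1 alone and 1332 on slide 2 alone, with 4 arrays of each genotype, and 2646 to 3369 without 1 array. On slide 1 and slide 2 alone the counts were 1 and 5 for inflammasome genes, 4 and 5 for macrophage markers, 10 and 11 for the chromosome 1 neighbours, and 0 and 0 for T and NK cell, neutrophil and epithelial genes, and slide 1 gave 0 DNA sensing genes. Neutrophil genes were 0 without background correction, with the series table, with no filter and with the replicate block. With every detected probe tested there were 10 DNA sensing genes, and with 75th percentile scaling 2 epithelial genes passed. Without 1 array the counts were 3 to 6 for DNA sensing, 0 to 1 for neutrophil, 0 to 1 for B cell and 1 to 2 for epithelial genes. Same-numbered arrays of both genotypes deviated together with correlations from -0.23 to 0.39 and 2 of 8 correlated best with their own number, so the numbers were not taken as pairs. The replicate block gave 3459 genes past the threshold and 1 B cell gene. Among single genes Il1r2 lost its call under 16 alternatives, 10 of them without 1 array (wildtype 2, 3, 5, 7 or 8, knockout 2, 3, 4, 7 or 8). Tbk1 lost it under 7, 5 of them without 1 array, and Krt20 under 3, both with 75th percentile scaling among them (limma adjusted p = 0.139 and 0.286). Casp4, Cd3e and Mrc1 lost theirs on each slide alone. Il18, Il1rn, Samhd1, Adar, Rnaseh2c, C1qb, Cd68 and Lyz2 each lost theirs under 1 alternative. Fcrla gained a call under 5 (the replicate block, and without wildtype array 2 or 8 or knockout array 2 or 3).

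Of the correlations, some changed sign. With 75th percentile scaling r was 0.0770 for Aim2 and the interferon mean in knockout, -0.0637 and 0.158 for Ifi202b with the macrophage and B cell means in knockout, and 0.559 and 0.0803 for Ifi205 with the interferon and B cell means in wildtype tissue. Without the 2 farthest arrays it was -0.139 for Ifi202b with the macrophage mean in knockout. With the other Ifi205 probe, an alternative chosen after seeing the data, r was -0.182 and 0.0233 for the macrophage and B cell means in wildtype, and -0.110 and 0.289 for the interferon and B cell means in knockout tissue. In each of these groups except the last 2 the member was not detected or was detected on only 3 arrays. The cause was not tested.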
